A study of Homo sapiens with 9 samples.

Results

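Aminoacyl-tRNA synthetases are the enzymes that join each amino acid to its transfer RNA. The 36 genes described here were taken from the deposited expression table by symbol, and all 36 were found among its 58174 genes. Of these genes 20 encode cytosolic enzymes and 16 encode mitochondrial ones, which are written with a final 2 in their symbols. RNA was sequenced from 9 libraries labelled HepG2, a human liver tumour line, with 3 libraries in each of 3 groups. The NFE2L1 group overexpresses NFE2L1, a transcription factor held in the endoplasmic reticulum that activates proteasome genes once it is processed. The NFE2L1DC group overexpresses a form that the protocol writes with a delta sign (ΔC). The control group is labelled WT and is named in the protocol after the lentiviral vector pLVX, which stands there without an insert. All 3 groups were grown in high-glucose DMEM with serum. The promoter of the transgenes, the extent of the change in NFE2L1DC and whether a line is 1 clone or a pool are unknown here.

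Synthetases are grouped by the amino acid they charge, by the compartment they serve and by the fold of the catalytic domain, class I or class II. All are encoded in the nucleus, and for most amino acids the cytosol and the mitochondria have separate genes, so that WARS charges tryptophan in the cytosol and WARS2 does so in mitochondria. GARS and KARS, for glycine and lysine, make both enzymes from 1 gene. In human cells several cytosolic synthetases sit together in the multi-synthetase complex, and the transcription factor ATF4 raises many cytosolic synthetase genes when amino acids run short or the endoplasmic reticulum is stressed. WARS stands apart because interferon induces it.

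The values are TPM, a transcript abundance that is normalised for length and scaled to a common total in each library. NFE2L1 itself had 181 to 354 TPM in the NFE2L1 libraries and 427 to 472 TPM in the NFE2L1DC libraries, against 64 to 104 TPM in control libraries. None of 12 liver markers reached 1 TPM in any library, and ALB, APOB, APOH, TTR, SERPINA1, FGB and FGA were at 0 throughout, so the expression values go against the labelled line. Among leukocyte markers PTPRC, CD3E and LYZ were at 0, and CD68 had 33.8 to 41.6 TPM in NFE2L1 libraries, 24.5 to 26.4 in NFE2L1DC libraries and 22.1 to 23.0 in control libraries. The summed level of 5 fibroblast markers was 91.1 to 105.7 TPM in NFE2L1, 85.6 to 102 in NFE2L1DC and 126.4 to 147.7 in control libraries, with COL1A2 at 0. Most of that sum was COL3A1, at 69.9 to 77.3 TPM in NFE2L1, 61.3 to 74.8 in NFE2L1DC and 99.7 to 114 in control libraries. COL1A1 overlapped, at 15.9 to 22.2 TPM in NFE2L1, 19.4 to 22.1 in NFE2L1DC and 19.1 to 21.0 in control libraries. None of 5 endothelial markers reached 1 TPM. The part of these markers in the results was not tested, and in bulk RNA fewer cells of a type and less RNA per cell cannot be told apart. Control replicate 3 stood apart from control replicates 1 and 2 in many synthetase genes, as described below for each result that rests on it. The median-of-ratios scaling factors were 0.889 and 0.877 in control replicates 1 and 2 and 1.086 in control replicate 3. They were 1.06 to 1.076 in NFE2L1 and 0.982 to 1.082 in NFE2L1DC libraries, nearer to control replicate 3. Which of the control libraries are the unusual ones was not tested. The annotated span of 11 synthetase genes overlaps that of another expressed protein-coding gene, for 10 of them on the opposite strand (among them MARS with DDIT3 and HARS with HARS2), and whether the libraries keep strand is unknown here, so reads in the shared stretches cannot be assigned to either gene.

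All 36 genes passed the filter of 1 TPM in at least 3 of the 9 libraries. Mean levels ran from AARS, for alanine, at 255 ± 7.10 TPM in NFE2L1, 263 ± 6.32 in NFE2L1DC and 251 ± 24.9 in control libraries, down to WARS2 at 8.63 ± 0.939 TPM in NFE2L1, 8.0 ± 0.632 in NFE2L1DC and 7.55 ± 1.88 in control libraries (SD, n = 3 each). Summed over the 20 cytosolic genes, the level was 2681.8 ± 79.2 TPM in NFE2L1, 2574.4 ± 106 TPM in NFE2L1DC and 2133.3 ± 116 TPM in control libraries (SD, n = 3 each). Every library of both lines lay above every control library, whose highest sum was 2256.9 TPM. The 16 mitochondrial genes summed to 599.8 ± 4.74 TPM in NFE2L1, 606.7 ± 28.7 TPM in NFE2L1DC and 558.6 ± 25.4 TPM in control libraries (SD, n = 3 each). For these the NFE2L1 libraries, at 596.8 to 605.3 TPM, lay above the control range of 531.3 to 581.5 TPM, and the NFE2L1DC libraries overlapped it. The sums are TPM without further scaling. The median log2 change over all genes tested was itself above 0, at 0.17 in NFE2L1 and 0.12 in NFE2L1DC against control.

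**Figure D1:**
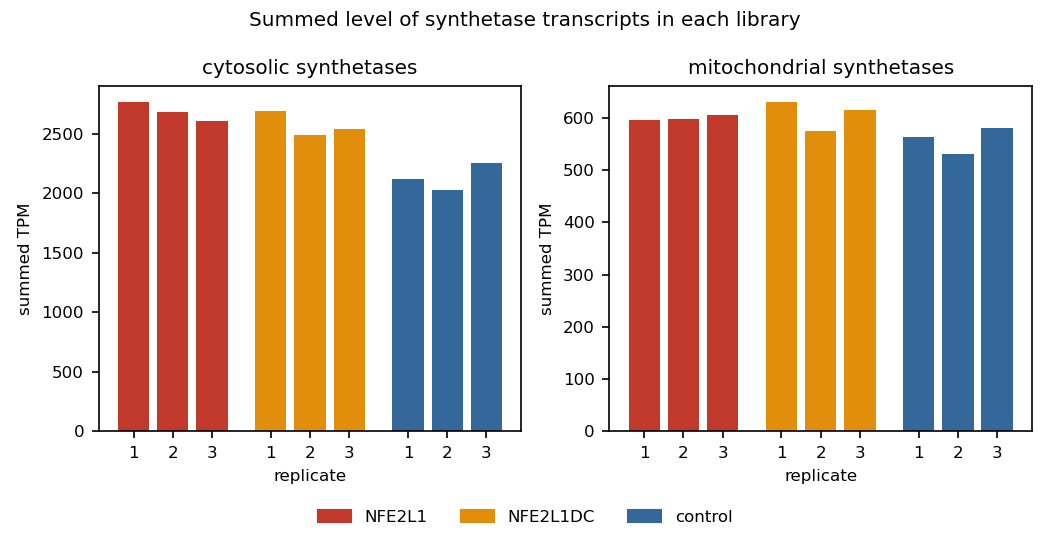
Summed TPM (y axis) of the 20 cytosolic genes (left) and the 16 mitochondrial genes (right) in each library, 1 bar per replicate, coloured by group. The cytosolic sums of both lines start at 2490.6 TPM, above the highest control sum of 2256.9 TPM, whereas the mitochondrial sums lie closer together.

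The first comparison asks which synthetase genes differ between cells that overexpress NFE2L1 and cells that carry the vector. WARS, GARS, MARS and FARSB among the cytosolic genes and MARS2 among the mitochondrial genes rose, and no synthetase gene fell. These are 5 of 36 genes (13.9%), at an adjusted p under 0.05 in limma-trend on log2(TPM + 1), where 7.83% of all 14118 genes tested were higher and 2.57% were lower (10.4% in either direction). By compartment, 4 of 20 cytosolic genes (20%) and 1 of 16 mitochondrial genes (6.25%) passed. The median log2 change was 0.50 over the cytosolic genes (range -0.27 to 0.96) and 0.16 over the mitochondrial genes (range -0.24 to 0.69), beside 0.17 over all genes tested. Without adjustment 19 of the 36 genes were at p under 0.05. No count over all genes was made at this level, so it has no share to be set against. All 3 NFE2L1 libraries lay above all 3 control libraries in 13 of 20 cytosolic genes (65%) and 4 of 16 mitochondrial genes (25%), beside 22.6% of all genes. They lay below in QARS and VARS2, 5.56% of the 36 genes beside 9.53% of all. Scaling by the median of ratios moved the median of all genes from 0.17 to 0.02, the cytosolic median to 0.32 and the mitochondrial median to 0.00, so the cytosolic genes stayed above the median of all genes and the mitochondrial genes stayed near it.

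**Figure D2:**
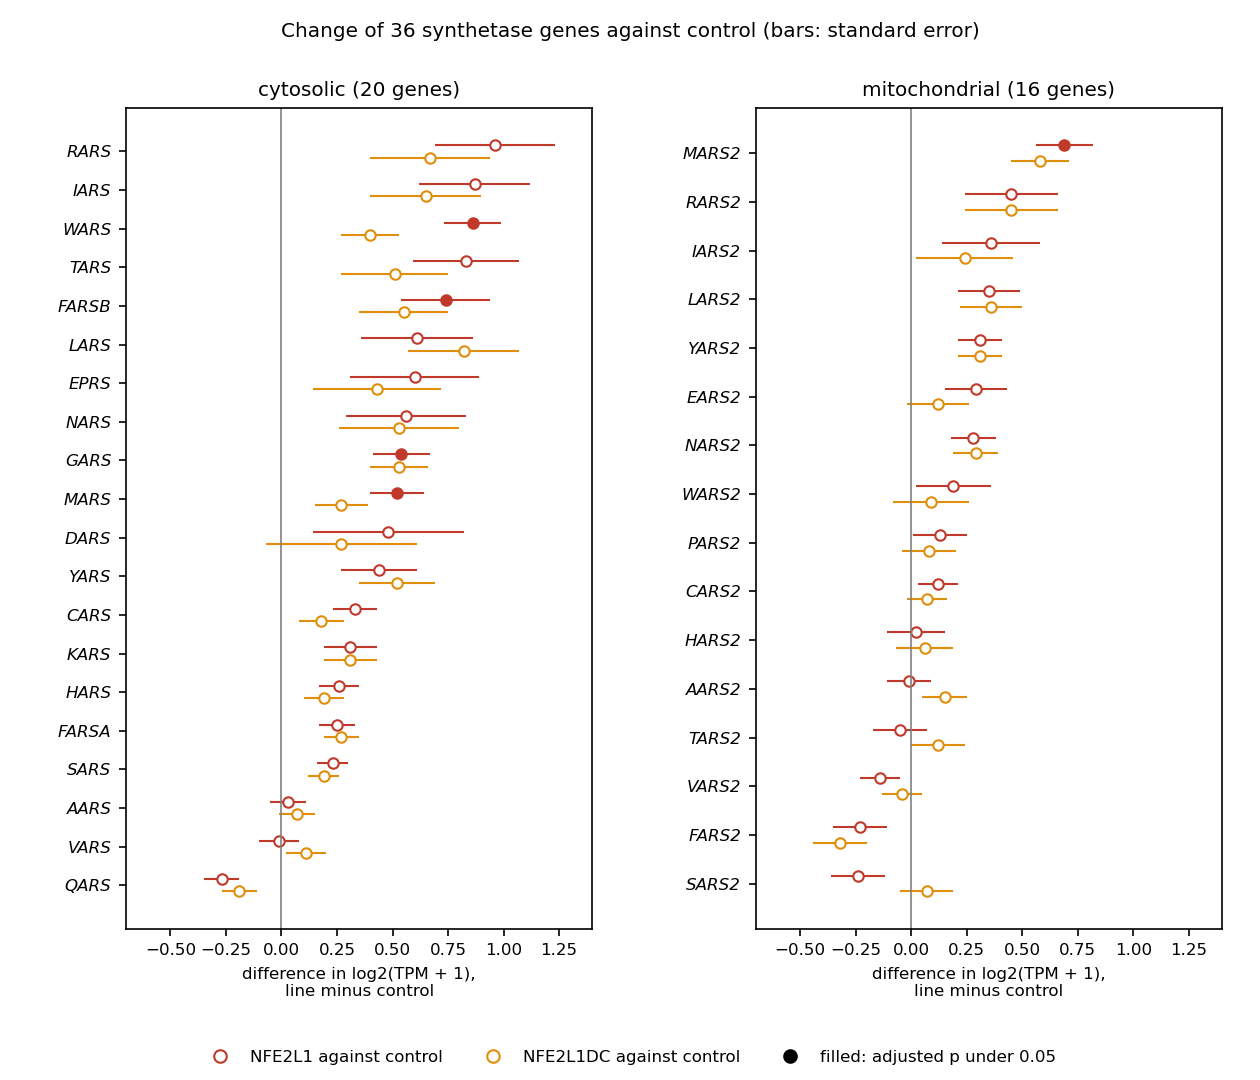
Difference in log2(TPM + 1), line minus control (x axis), for the 20 cytosolic genes (left) and 16 mitochondrial genes (right), with NFE2L1 in red, NFE2L1DC in orange and bars for the standard error. Filled points mark the 5 genes called, all in NFE2L1, and the points furthest right (RARS at 0.96, IARS at 0.87) carry wide bars.

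WARS, the cytosolic tryptophan enzyme, showed the smallest adjusted p of the family. It lies on chromosome 14 (GRCh38, 100333788 to 100376805, minus strand). RefSeq (GRCh38.p14) gives it a pair of start sites, and both windows, from 250 bases before to 50 bases after the start, are shown because the interferon-type motifs fall in only the downstream one. Capitals mark motif matches. In the downstream window, chr14:100375298-100375597 (minus strand), these are TTCTGAGAA, a match to the gamma interferon activation (GAS) motif TTCNNNGAA at position -142 from the start, and GAAACTGAAA, a match to the interferon-stimulated response element (GAAA, any 2 bases, GAAA) at position -55. In the upstream window, chr14:100376278-100376577 (minus strand), TGACGGCGC at position -41 matches the antioxidant response element TGACNNNGC.
WARS downstream start: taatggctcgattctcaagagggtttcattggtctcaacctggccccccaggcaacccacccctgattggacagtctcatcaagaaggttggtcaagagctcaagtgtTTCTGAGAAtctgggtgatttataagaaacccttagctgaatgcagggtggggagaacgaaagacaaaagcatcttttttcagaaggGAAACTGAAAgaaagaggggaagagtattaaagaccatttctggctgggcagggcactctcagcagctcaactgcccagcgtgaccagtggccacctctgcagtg
WARS upstream start: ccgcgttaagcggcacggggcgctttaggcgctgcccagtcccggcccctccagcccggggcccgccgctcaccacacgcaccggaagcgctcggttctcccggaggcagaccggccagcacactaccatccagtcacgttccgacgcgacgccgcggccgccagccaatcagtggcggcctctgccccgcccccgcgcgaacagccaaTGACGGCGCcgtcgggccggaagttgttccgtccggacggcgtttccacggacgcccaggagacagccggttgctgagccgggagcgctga
Searched on both strands over 35116 RefSeq promoter windows of this length, the GAS letters occur in 7.66%, the interferon-stimulated letters in 3.57% and the antioxidant letters in 13.3%. Windows were found for 30 of the 36 genes. GAS letters occur in those of CARS, PARS2, TARS, WARS and WARS2, interferon-stimulated letters in those of EARS2 and WARS, and antioxidant letters in those of GARS, KARS, NARS2, RARS2, TARS and WARS. A match of letters is a description and not evidence of binding.

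WARS had 227, 203 and 219 TPM in NFE2L1 libraries and 169.8, 132 and 172 TPM in NFE2L1DC libraries, against 119, 101 and 138 TPM in control libraries. The NFE2L1 libraries lay above all others, and the NFE2L1DC libraries overlapped the control libraries. In NFE2L1 against control the fold was 1.81 (log2 0.86 ± 0.13 SE, limma adjusted p = 0.00514). In NFE2L1DC against control the log2 change was 0.40 ± 0.13 (adjusted p = 0.129), and without control replicate 3 it was 0.51 (adjusted p = 0.0235). Between the lines, NFE2L1 over NFE2L1DC, it was 0.46 ± 0.13 (fold 1.37, unadjusted p = 0.0069, adjusted p = 0.288 in limma), with no overlap of the libraries. The NFE2L1 call held in 15 of 16 other settings. With control replicate 3 as the only control the log2 difference was 0.64 (adjusted p = 0.104), in a fit whose spread comes from the other groups, so that the lone control library is assumed to vary like them. WARS2, the mitochondrial partner, had 9.14, 7.54 and 9.20 TPM in NFE2L1, 8.69, 7.84 and 7.45 TPM in NFE2L1DC and 6.36, 6.57 and 9.71 TPM in control libraries. Its groups overlapped, with log2 differences over control of 0.19 in NFE2L1 (limma adjusted p = 0.471) and 0.09 in NFE2L1DC (adjusted p = 0.765).

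Interferon genes were set beside WARS as a list of genes known to respond to type I interferon and a list known to respond to interferon gamma. Of 28 tested interferon alpha type genes, 27 rose in NFE2L1 against control (median log2 change 2.01), beside 7.83% of all genes. In NFE2L1DC against control 6 rose (median 0.35), beside 2.06% of all genes. Between the lines 23 were higher in NFE2L1 (median 1.44), beside 0.715% of all genes. OAS2, IFI44L, RSAD2, DDX58 and DDX60 averaged under 1 TPM in NFE2L1DC and in control libraries. They passed the filter only through the NFE2L1 libraries, so their higher level there was fixed in advance. They count among the 27 and, DDX60 apart, among the 23. IFIT2, which counts among the 27 and the 23, also averaged under 1 TPM, at 0.966 in NFE2L1DC and 0.594 in control libraries. Whether IFIT2 would pass the filter without the NFE2L1 libraries was not tested. ISG15, a ubiquitin-like modifier, averaged 543 ± 37.2 TPM in NFE2L1 and 86.0 ± 8.89 TPM in NFE2L1DC libraries, against 37.9 ± 4.03 TPM in control libraries (SD, n = 3 each). Without control replicate 3 the NFE2L1DC count was 13 higher and 1 lower, beside 20.1% and 4.34% of all genes. IFI27, OAS1 and OAS3 were called in the same 3 comparisons. Of 14 tested interferon gamma type genes, 9 rose in NFE2L1 against control and 1 in NFE2L1DC against control (medians 0.64 and 0.15). Between the lines 3 were higher in NFE2L1 (median 0.39). The medians over all genes were 0.17, 0.12 and 0.06 in these comparisons. Under median-of-ratios scaling the gamma type counts were 5, 0 and 1, beside 3.95%, 0.843% and 0.489% of all genes. Without control replicate 3 the gamma type count in NFE2L1DC was 3 higher and 1 lower. PSMB9, an immunoproteasome subunit, and TAP1, a peptide transporter, were highest in NFE2L1, with log2 changes over control of 1.27 and 0.80 (limma adjusted p = 0.000543 and 0.00145). In NFE2L1DC over control PSMB9 and TAP1 had log2 differences of 0.41 and 0.12 (adjusted p = 0.114 and 0.513).

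Both methionine enzymes rose in NFE2L1. MARS, which charges the initiator as well as the elongator methionine tRNA, had 227, 228 and 175 TPM in NFE2L1 libraries and 179, 198 and 152 TPM in NFE2L1DC libraries, against 149.5, 147 and 139.9 TPM in control libraries. Control libraries were the lowest in both comparisons, without overlap. In NFE2L1 the fold over control was 1.45 (log2 0.52 ± 0.12, limma adjusted p = 0.0315), and in NFE2L1DC the log2 difference was 0.27 ± 0.12 (adjusted p = 0.245). MARS2, the mitochondrial enzyme, had 14.7, 13.3 and 15.1 TPM in NFE2L1 and 14.3, 11.5 and 13.9 TPM in NFE2L1DC, against 8.23, 7.70 and 9.74 TPM in control libraries. Again no control library reached either line. The fold over control was 1.68 in NFE2L1 (log2 0.69 ± 0.13, limma adjusted p = 0.015) and 1.55 in NFE2L1DC (log2 0.58 ± 0.13, adjusted p = 0.0515). The MARS call was lost without control replicate 1 or 2 or NFE2L1 replicate 1 or 2 (adjusted p = 0.0781, 0.0953, 0.113 and 0.108), with no filter on low values (0.0801) and under median-of-ratios scaling (log2 0.34, adjusted p = 0.208); with control replicate 3 alone the log2 difference was 0.57 (0.209). The MARS2 call was lost without control replicate 1 or 2 or NFE2L1 replicate 1 or 3 (adjusted p = 0.0532, 0.0645, 0.0619 and 0.0681), and with control replicate 3 alone the log2 difference was 0.51 (0.2).

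The tail of MARS overlaps DDIT3, a stress factor on the opposite strand, by 982 bases, whose mean was 30.7 ± 6.36 TPM in NFE2L1, 21.1 ± 3.70 TPM in NFE2L1DC and 22.9 ± 1.27 TPM in control libraries (SD, n = 3 each). Its log2 difference in NFE2L1 over control was 0.39 (limma adjusted p = 0.163).

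GARS, the glycine enzyme of both compartments, had 209.5, 204 and 196 TPM in NFE2L1 libraries and 223, 183 and 201 TPM in NFE2L1DC libraries, against 118, 135 and 170.2 TPM in control libraries. All libraries of both lines lay above all control libraries, and the lines overlapped each other. The fold over control was 1.44 in each line, with log2 changes of 0.54 ± 0.13 in NFE2L1 (limma adjusted p = 0.0308) and 0.53 ± 0.13 in NFE2L1DC (adjusted p = 0.0559). KARS, the lysine enzyme that also serves both compartments, averaged 231 ± 12.7 TPM in NFE2L1 and 231 ± 33.3 TPM in NFE2L1DC libraries, against 186 ± 19.6 TPM in control libraries (SD, n = 3 each). Its log2 differences over control were 0.31 in both lines (limma adjusted p = 0.106 and 0.168). The GARS call in NFE2L1 was lost without control replicate 1 (log2 0.42) or 2, any NFE2L1 replicate or NFE2L1DC replicate 3 (adjusted p = 0.0518 to 0.105), under median-of-ratios scaling (log2 0.36, adjusted p = 0.0652), with no filter on low values (0.0802) and in a fit of only the 2 groups (0.062). With control replicate 3 alone the log2 difference was 0.25 (adjusted p = 0.364).

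FARSB, the beta subunit of the cytosolic phenylalanine enzyme, had 77.4, 80.5 and 77.1 TPM in NFE2L1 and 75.0, 65.1 and 65.9 TPM in NFE2L1DC, against 35.7, 40.8 and 68.5 TPM in control libraries. Control replicate 3 lay inside the NFE2L1DC range and below the NFE2L1 range. In NFE2L1 the fold over control was 1.62 (log2 0.74 ± 0.20, limma adjusted p = 0.047), and in NFE2L1DC the log2 difference was 0.55 ± 0.20 (adjusted p = 0.157). The call was lost when any library other than control replicate 3 was left out (adjusted p = 0.062 to 0.158), with no filter on low values (0.122) and in a fit of only the 2 groups (0.0996), and with control replicate 3 alone the log2 difference was 0.19 (adjusted p = 0.478). FARSA, the catalytic alpha subunit, averaged 244 ± 3.47 TPM in NFE2L1 and 248 ± 12.3 TPM in NFE2L1DC, against 206 ± 20.0 TPM in control libraries (SD, n = 3 each). Neither line overlapped control, at log2 differences of 0.25 in NFE2L1 and 0.27 in NFE2L1DC (limma adjusted p = 0.0762 and 0.1). FARS2, the single-chain mitochondrial enzyme, averaged 30.7 ± 5.31 TPM in NFE2L1 and 28.6 ± 0.814 TPM in NFE2L1DC, against 35.8 ± 0.749 TPM in control libraries (SD, n = 3 each), at log2 differences of -0.23 in NFE2L1 and -0.32 in NFE2L1DC (adjusted p = 0.223 and 0.167).

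**Figure D3:**
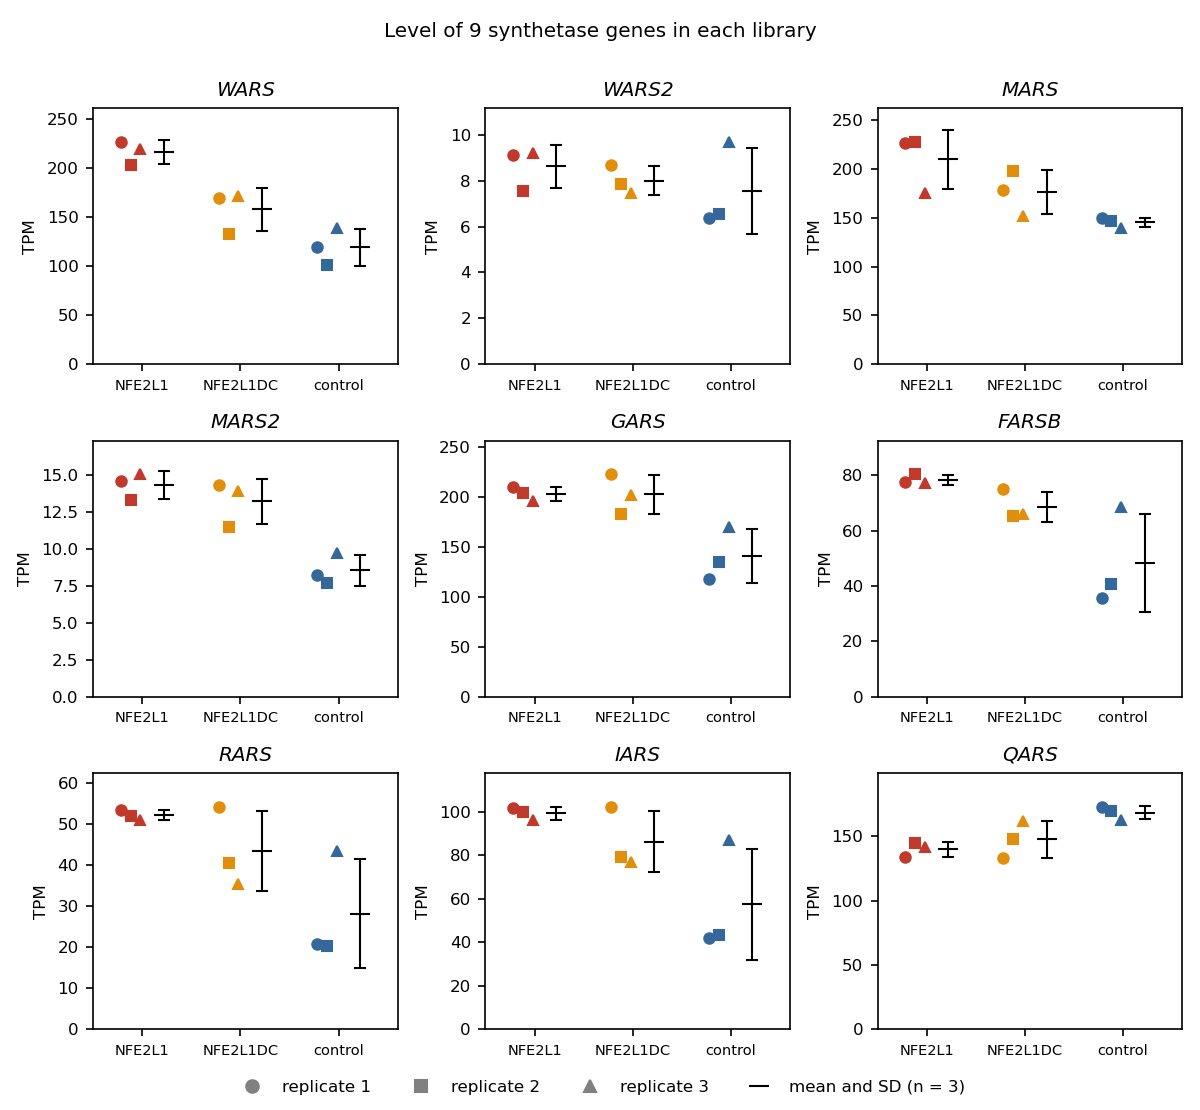
TPM (y axis, from 0) of 9 synthetase genes in each library, by group (x axis), with the mean and SD of 3 libraries beside the points. WARS, MARS, MARS2, GARS and FARSB are the 5 genes called in NFE2L1 against control; RARS and IARS show control replicate 3 (triangle) apart from control replicates 1 and 2, and in QARS every control library lies above both lines.

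The largest mean differences in NFE2L1 belonged to genes in which the control libraries disagreed. RARS, for arginine, had 53.4, 51.8 and 51.0 TPM in NFE2L1 and 54.2, 40.5 and 35.3 TPM in NFE2L1DC, against 20.8, 20.2 and 43.4 TPM in control libraries. Its log2 difference in NFE2L1 was 0.96 ± 0.27 (limma adjusted p = 0.0522). IARS, for isoleucine, had 102, 100.1 and 96.2 TPM in NFE2L1 and 102, 79.3 and 77.0 TPM in NFE2L1DC, against 41.8, 43.3 and 87.1 TPM in control libraries (log2 0.87 ± 0.25 in NFE2L1, adjusted p = 0.0547). In both genes every NFE2L1 library lay above control replicate 3, and the NFE2L1DC libraries lay on both sides of it. In 11 synthetase genes control replicate 3 was at least 1.5 times the mean of control replicates 1 and 2, by 1.5 to 2.43 times. These were DARS, EPRS, FARSB, LARS, IARS, RARS, NARS and TARS among the cytosolic genes and IARS2, RARS2 and WARS2 among the mitochondrial ones, chosen here by that ratio. In the other 25 genes the ratio was 0.761 to 1.35.

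The 11 genes had transcript GC contents of 40.4 to 46.1%, and the other 25 had 42.1 to 61.9%. Across the 36 genes the log2 difference of control replicate 3 from control replicates 1 and 2 went with GC content at r = -0.84 (Spearman rho -0.85). The difference of NFE2L1 from control went with it at r = -0.68 (rho -0.69) and that of NFE2L1DC at r = -0.63 (rho -0.66). Both comparisons share the control libraries. For NFE2L1 over NFE2L1DC, which uses no control library, the value was r = -0.43 (rho -0.43). Against control replicate 3 alone the values were r = 0.20 (rho 0.20) for NFE2L1 and 0.46 (rho 0.45) for NFE2L1DC. These correlations are descriptions across genes, which are not independent replicates.

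**Figure D4:**
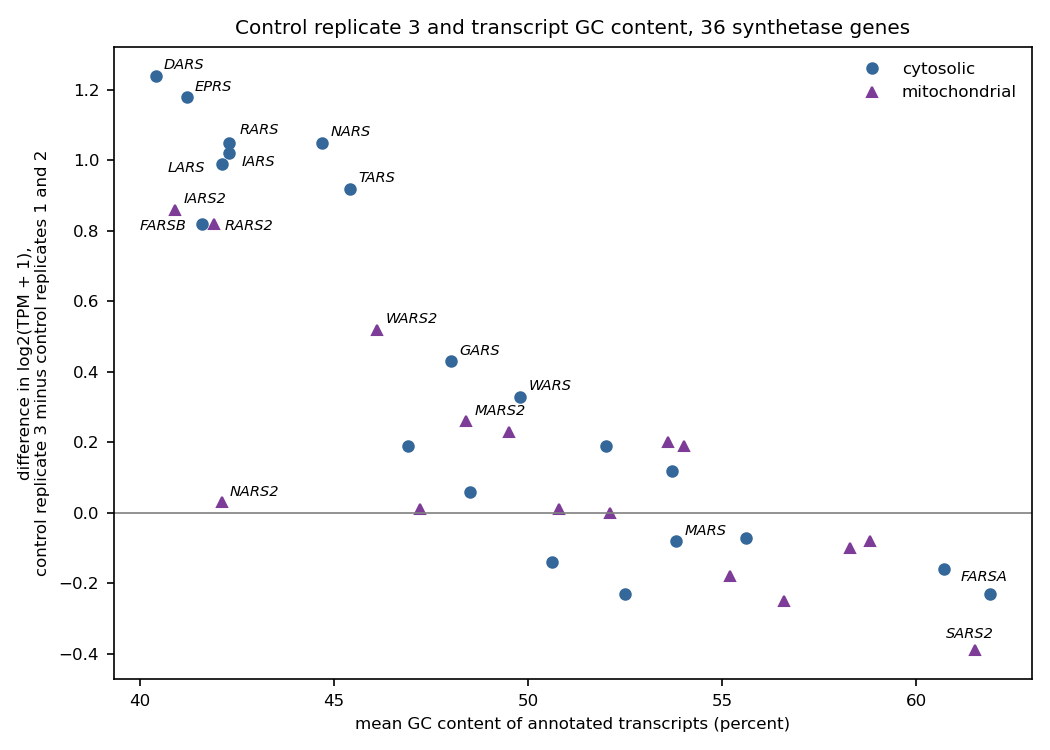
Difference in log2(TPM + 1) of control replicate 3 from the mean of control replicates 1 and 2 (y axis) against the mean GC content of annotated transcripts in percent (x axis), 1 point per gene. The difference reaches 1.24 in DARS at 40.4% GC and is below 0 in all 8 genes above 55% GC.

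The counts moved with that library. Without control replicate 3, 15 cytosolic genes passed in NFE2L1 against control, 14 higher and QARS lower, and 5 mitochondrial genes passed, 4 higher and SARS2 lower, while 30.1% of all genes were higher and 5.69% lower. With control replicate 3 as the only control, again with the spread taken from the other groups, no synthetase gene passed, while 1.64% of all genes were higher and 0.538% lower. After a correction for GC content and transcript length, 10 cytosolic genes (CARS, FARSA, FARSB, GARS, IARS, MARS, RARS, SARS, TARS and WARS) and 2 mitochondrial genes (EARS2 and MARS2) were higher, beside 11.2% of all genes (2.07% were lower). The median change was then 0.40 over the cytosolic genes and 0.12 over the mitochondrial genes, beside 0.17 over all genes.

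Within the cytosolic genes, the 8 members of the multi-synthetase complex (DARS, EPRS, IARS, KARS, LARS, MARS, QARS and RARS) had a median log2 change of 0.56 in NFE2L1 over control, with 1 called (12.5%), and the 12 outside it had 0.39, with 3 called (25%), beside 7.83% of all genes higher. Of the complex members 7 had a positive difference and QARS a negative one. DARS, EPRS, IARS, LARS and RARS in the complex and FARSB, NARS and TARS outside it are among the 11 genes named above. Against control replicate 3 alone DARS, EPRS, LARS and QARS were at -0.34, -0.18, -0.06 and -0.22 in NFE2L1. IARS, KARS, MARS and RARS were at 0.19, 0.19, 0.58 and 0.26. Outside the complex NARS was at -0.13 and the others at 0.09 to 0.64. The order of the medians was then reversed. QARS, for glutamine, had 134, 145 and 141 TPM in NFE2L1 and 133, 148 and 162 TPM in NFE2L1DC, against 173, 169.6 and 163 TPM in control libraries, so that all control libraries were the highest. Neither difference passed (limma adjusted p = 0.0698 and 0.214). By fold of the catalytic domain, 3 of 18 class I genes (16.7%) and 2 of 17 class II genes (11.8%) were called, with medians of 0.35 and 0.25, EPRS being left out because its glutamyl and prolyl enzymes belong to different classes.

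The 13 cytosolic genes listed as ATF4 responsive had a median log2 change of 0.54 in NFE2L1 over control, with 3 called (23.1%), and the other 7 had 0.31, with 1 called (14.3%), beside 7.83% of all genes higher. In NFE2L1DC the medians were 0.43 and 0.27, with none called. EPRS, IARS, LARS, NARS and TARS of the 13 and DARS, FARSB and RARS of the 7 were high in control replicate 3. Against that library alone the middle value in NFE2L1 was 0.22 among the 13 (TARS) and 0.19 among the 7 (FARSB and KARS). The letters TGATGNAA, the core of the C/EBP-ATF response element, occurred in 8 of 39 windows of synthetase genes (20.5%) and in 3.62% of all promoter windows. The genes were AARS, CARS, GARS, IARS, MARS, NARS and TARS, all cytosolic, and YARS2. Windows of 3 of them are shown: those of MARS and GARS, which were called in NFE2L1, and that of IARS, which had the largest difference of the 8. In capitals are TTGCATCA at position -4 in MARS (chr12:57487818-57488117, plus strand), TTGCATCA at -13 in IARS (chr9:92293648-92293947, minus strand), and in the downstream of a pair of GARS starts (chr7:30594628-30594927, plus strand) TTTCATCA at -33 and the antioxidant letters GCCGCGTCA at -92, all read on the other strand.
MARS: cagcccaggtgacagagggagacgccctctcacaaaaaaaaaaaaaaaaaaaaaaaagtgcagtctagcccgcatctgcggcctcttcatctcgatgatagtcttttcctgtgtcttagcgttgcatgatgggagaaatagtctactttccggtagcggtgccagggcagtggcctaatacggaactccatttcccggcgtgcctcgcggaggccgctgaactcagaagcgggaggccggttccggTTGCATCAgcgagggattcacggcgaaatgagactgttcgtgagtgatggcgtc
IARS: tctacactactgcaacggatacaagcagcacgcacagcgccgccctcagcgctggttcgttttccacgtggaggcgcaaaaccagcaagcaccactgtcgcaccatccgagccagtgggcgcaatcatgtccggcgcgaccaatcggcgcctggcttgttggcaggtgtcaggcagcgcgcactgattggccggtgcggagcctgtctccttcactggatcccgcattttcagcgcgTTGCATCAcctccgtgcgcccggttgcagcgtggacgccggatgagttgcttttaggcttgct
GARS: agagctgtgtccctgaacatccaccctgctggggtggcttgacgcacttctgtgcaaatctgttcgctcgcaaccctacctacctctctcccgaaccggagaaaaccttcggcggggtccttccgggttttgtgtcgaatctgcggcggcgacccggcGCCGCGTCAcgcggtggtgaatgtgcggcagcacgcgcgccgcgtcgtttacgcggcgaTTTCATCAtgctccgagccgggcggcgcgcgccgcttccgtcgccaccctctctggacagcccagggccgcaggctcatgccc
Cytosolic genes with the letters had a median log2 change of 0.54 in NFE2L1 over control (7 genes, 0.03 to 0.87, 2 called), and those with a window but without the letters had 0.31 (9 genes, -0.27 to 0.96, 2 called). AARS, with the letters, was at 0.03 (limma adjusted p = 0.833), and RARS, without them, at 0.96. Against control replicate 3 alone the middle values were 0.22 with the letters (TARS) and 0.19 without them (FARSB and KARS).

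A list of 34 tested ATF4 and amino acid response genes that holds no synthetase gave 12 higher and none lower in NFE2L1 against control (median log2 change 0.34). In NFE2L1DC against control 5 were higher and none lower (median 0.27). Over all genes 7.83% and 2.06% were higher in these comparisons, with medians of 0.17 and 0.12. Under median-of-ratios scaling 6 were higher in NFE2L1 and 1 in NFE2L1DC, beside 3.95% and 0.843% of all genes. Without control replicate 3 there were 11 higher and 1 lower in NFE2L1DC, beside 20.1% and 4.34% of all genes. TRIB3, a pseudokinase target of ATF4, averaged 114 ± 5.50 TPM in NFE2L1 and 93.2 ± 2.02 TPM in NFE2L1DC, against 49.4 ± 4.85 TPM in control libraries (SD, n = 3 each), at log2 changes of 1.20 in NFE2L1 and 0.91 in NFE2L1DC (limma adjusted p = 8.06e-05 and 0.00127). SLC1A5, a glutamine transporter, rose by 0.58 in NFE2L1 and 0.55 in NFE2L1DC on the log2 scale (adjusted p = 0.0024 and 0.00806). CEBPB, a partner of ATF4 on DNA, rose by 0.73 in NFE2L1 and 0.41 in NFE2L1DC (adjusted p = 0.000312 and 0.0165). STC2, a secreted glycoprotein of the stress response, rose by 0.88 in NFE2L1 (adjusted p = 0.00421) and EIF4EBP1, a repressor of cap-dependent translation, by 0.32 in NFE2L1DC (adjusted p = 0.0455). Between the lines none of the 34 genes passed in limma, with 10 at an unadjusted p under 0.05, a level not counted over all genes.

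The other cytosolic genes did not pass. CARS (cysteine), SARS (serine), HARS (histidine) and YARS (tyrosine) lay above all control libraries in NFE2L1, at log2 differences of 0.33, 0.23, 0.26 and 0.44 (limma adjusted p = 0.0611, 0.058, 0.0762 and 0.122). TARS, for threonine, had 59.6, 53.6 and 67.5 TPM in NFE2L1 and 57.2, 49.2 and 39.2 TPM in NFE2L1DC, against 26.9, 26.7 and 51.7 TPM in control libraries (log2 0.83 in NFE2L1, adjusted p = 0.0608). LARS, for leucine, was the gene with the largest difference in NFE2L1DC, 0.82 ± 0.25 (adjusted p = 0.111), and was at 0.61 ± 0.25 in NFE2L1 (adjusted p = 0.142). Its control libraries ranged from 15.6 to 37.5 TPM, with control replicate 3 the highest. Against that library alone its differences were 0.15 in NFE2L1DC and -0.06 in NFE2L1. EPRS, NARS and DARS, for glutamate and proline, asparagine and aspartate, were at 0.60, 0.56 and 0.48 in NFE2L1, with control replicate 3 inside or above the range of the NFE2L1 libraries. AARS and VARS, for alanine and valine, were at 0.03 and -0.01.

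HARS and HARS2 start 85 bases apart on opposite strands of chromosome 5, and their windows share 184 bases. The HARS window (GRCh38.p14, chr5:140691321-140691620, minus strand) is shown with the stretch between the start sites in capitals, both start bases included.
HARS: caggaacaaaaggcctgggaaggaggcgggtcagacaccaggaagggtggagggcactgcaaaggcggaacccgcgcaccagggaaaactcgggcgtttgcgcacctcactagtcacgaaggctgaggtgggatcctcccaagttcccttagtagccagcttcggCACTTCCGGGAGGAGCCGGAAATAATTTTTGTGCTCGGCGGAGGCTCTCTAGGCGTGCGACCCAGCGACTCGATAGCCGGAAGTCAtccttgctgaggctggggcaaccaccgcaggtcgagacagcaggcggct
HARS averaged 79.3 ± 2.87 TPM in NFE2L1 and 75.1 ± 2.11 TPM in NFE2L1DC, against 66.0 ± 6.02 TPM in control libraries (SD, n = 3 each), without overlap in either line. HARS2 averaged 35.2 ± 5.25 TPM in NFE2L1 and 35.8 ± 2.11 TPM in NFE2L1DC, against 34.5 ± 3.65 TPM in control libraries (SD, n = 3 each), with overlap in both. Neither gene passed in either comparison (limma adjusted p = 0.0762 and 0.237 for HARS, 0.918 and 0.815 for HARS2).

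Of the mitochondrial genes other than MARS2, YARS2, NARS2 and LARS2 lay above all control libraries in NFE2L1, at log2 differences of 0.31, 0.28 and 0.35 (limma adjusted p = 0.0747, 0.108 and 0.142). YARS2 and NARS2 did so in NFE2L1DC as well, at 0.31 and 0.29 (adjusted p = 0.114 and 0.15). RARS2, IARS2 and EARS2 were at 0.45, 0.36 and 0.29 in NFE2L1 and overlapped control. CARS2, the most abundant mitochondrial member, averaged 144 ± 7.53 TPM in NFE2L1 and 139 ± 5.46 TPM in NFE2L1DC, against 133 ± 14.5 TPM in control libraries (SD, n = 3 each). PARS2 was at 0.13 in NFE2L1, and AARS2 and TARS2 were at -0.01 and -0.05. VARS2 and SARS2 were at -0.14 and -0.24 (adjusted p = 0.344 and 0.218). SARS2 had 38.2, 38.1 and 38.1 TPM in NFE2L1 and 48.3, 42.8 and 52.5 TPM in NFE2L1DC, against 50.7, 48.4 and 37.7 TPM in control libraries, so that control replicate 3 lay just below the NFE2L1 libraries and apart from the other control libraries.

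The ratio of the cytosolic to the mitochondrial gene for the same amino acid was formed within each library for 15 pairs, FARSA and FARSB each being set against FARS2. In NFE2L1 all libraries lay above all control libraries in 8 pairs, below in none and overlapped in 7. NFE2L1DC gave 4 pairs above, none below and 11 overlapping. IARS over IARS2 was 1.4 to 1.5 in NFE2L1 and 1.29 to 1.39 in NFE2L1DC, against 0.929 to 1.08 in control libraries, a range that includes control replicate 3, in which both genes were high. WARS over WARS2 was 23.8 to 26.9 in NFE2L1 and 16.9 to 23.0 in NFE2L1DC, against 14.3 to 18.7 in control libraries. SARS over SARS2 was 5.86 to 6.05 in NFE2L1 and 4.36 to 4.98 in NFE2L1DC, against 3.99 to 4.81 in control libraries. MARS over MARS2 overlapped throughout, at 11.6 to 17.1 in NFE2L1 and 10.9 to 17.2 in NFE2L1DC, against 14.4 to 19.0 in control libraries. No test was made on the ratios, and no ratios of other gene pairs were formed to set these counts against.

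Against the same 3 control libraries, no synthetase gene passed in NFE2L1DC in limma, where 2.06% of all genes were higher and 1.54% lower (3.61% in either direction). Without adjustment 16 of the 36 genes were at p under 0.05, again with no count over all genes. The median log2 change was 0.35 over the cytosolic genes and 0.12 over the mitochondrial genes, beside 0.12 over all genes. NFE2L1DC libraries lay above all control libraries in 10 genes (27.8%, beside 13.7% of all genes), namely FARSA, GARS, HARS, LARS, MARS, SARS, YARS, MARS2, NARS2 and YARS2. They lay below in QARS and FARS2, 5.56% beside 8.98% of all genes. Without control replicate 3, 9 cytosolic genes (EPRS, FARSB, GARS, IARS, LARS, NARS, RARS, TARS and WARS) and 3 mitochondrial genes (IARS2, MARS2 and RARS2) were higher, beside 20.1% of all genes (4.34% were lower). After the GC content and length correction FARSA, GARS and MARS2 were higher, beside 3.83% of all genes (1.59% were lower). MARS2 also passed without NFE2L1DC replicate 2 (log2 0.67, adjusted p = 0.0492).

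Set directly against each other, NFE2L1 and NFE2L1DC differed in no synthetase gene at an adjusted p under 0.05 in limma, and 0.793% of all genes passed (0.715% higher and 0.0779% lower in NFE2L1). At an unadjusted p under 0.05, which was not counted over all genes, there were 2 of 36 genes. The median log2 difference was 0.05 over the cytosolic genes and 0.00 over the mitochondrial genes, beside 0.06 over all genes. WARS, CARS and FARSB were higher in NFE2L1 without overlap (8.33% of the 36 genes, beside 12.4% of all), at 0.46, 0.16 and 0.19 on the log2 scale. LARS and SARS2 were lower in NFE2L1 without overlap (5.56%, beside 5.55% of all), at -0.20 and -0.32 (adjusted p = 0.908 and 0.542). NFE2L1 itself was at -0.92 in this comparison (adjusted p = 0.228).

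Genes that work beside the synthetases were counted in 3 lists. Of 7 tested partners of the synthetases none passed in any comparison in limma. At an unadjusted p under 0.05 were 3 of them for NFE2L1 over control, 2 for NFE2L1DC over control and 0 between the lines. That level was not counted over all genes. XPOT, which exports tRNA from the nucleus, averaged 39.1 ± 2.43 TPM in NFE2L1 and 36.9 ± 7.93 TPM in NFE2L1DC, against 22 ± 11.3 TPM in control libraries (SD, n = 3 each), at log2 differences of 0.90 in NFE2L1 and 0.80 in NFE2L1DC (adjusted p = 0.072 and 0.148). The complex scaffolds EEF1E1, AIMP1 and AIMP2 were at 0.59, 0.41 and -0.06 in NFE2L1. Without control replicate 3, 3 of the 7 were higher in each line, beside 30.1% of all genes in NFE2L1 and 20.1% in NFE2L1DC. Of 21 mitochondrial translation genes 3 rose in NFE2L1 (POLRMT, TRMU and QRSL1) and 2 in NFE2L1DC (TRMU and POLRMT). None was lower, and the medians were 0.36 and 0.33. Over all genes 7.83% were higher in NFE2L1 and 2.06% in NFE2L1DC, with medians of 0.17 and 0.12. Without control replicate 3 the counts were 10 in each line, beside 30.1% and 20.1% of all genes. Under median-of-ratios scaling they were 1 and 0, beside 3.95% and 0.843% of all genes. TRMU modifies mitochondrial tRNA, and POLRMT, the mitochondrial RNA polymerase, averaged 42.4 ± 0.599 TPM in NFE2L1 and 41.4 ± 1.03 TPM in NFE2L1DC, against 29.8 ± 3.04 TPM in control libraries (SD, n = 3 each). QRSL1, a subunit of the enzyme that makes mitochondrial glutaminyl-tRNA where no separate synthetase exists, was at 0.71 in NFE2L1 and 0.75 in NFE2L1DC (adjusted p = 0.0467 and 0.0664). Of 20 cytosolic translation factors, EIF2S1, EIF4E and ETF1 rose in NFE2L1 against control and none passed in NFE2L1DC against control. The medians were 0.41 and 0.20, beside 0.17 and 0.12 over all genes. At an unadjusted p under 0.05, not counted over all genes, there were 3 in NFE2L1DC. Without control replicate 3 the factors higher numbered 10 in NFE2L1 and 6 in NFE2L1DC, beside 30.1% and 20.1% of all genes.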

How the data were processed

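The authors deposited 1 table of TPM values for 58174 genes and 9 libraries; per the submitters' processing notes CASAVA and the GRCh38 build were used, and the sources used here name no aligner, quantifier, annotation or strandedness. The table holds no read counts, so depth is unknown and no counting interval can be given. Columns were matched to samples by name, and 57836 gene identifiers matched GENCODE release 29, which gave coordinates and GC content. Genes at 1 TPM or more in at least 3 of 9 libraries were kept (14118). Using limma 3.58.1 (R 4.3.3) with a variance trend, log2(TPM + 1) of all 9 libraries was modelled with group means. Contrasts were tested 2-sided with Benjamini-Hochberg adjustment over the 14118 genes, and an adjusted p under 0.05 was called. The procedure was tested on simulated data with independent normal noise and no deviating library. That test does not show how it behaves with control libraries that disagree as these do. Changes are the first-named group minus the second, with standard errors, on a scale that understates changes of low genes. Folds are ratios of mean TPM.

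The labels do not call the replicates separate cultures, and the p-values reflect no more than the variation among these libraries, which may be technical. The 36 genes, the lists and the markers were chosen with earlier results of these data known. Genes called in any contrast, WARS and WARS2 are given library by library, and the other synthetase genes by mean, range or count. Up to 4 called genes of a list are named by smallest p. Genes named beyond this were chosen after their values were seen. They are DDIT3, XPOT, COL1A1, the complex scaffolds, and OAS2, IFI44L, RSAD2, DDX58, DDX60 and IFIT2. The same holds for single libraries of RARS, IARS, QARS, TARS and SARS2. Alternatives were a pseudocount of 0.1, no filter, median-of-ratios scaling, a loess correction for GC content and length (14085 genes), the replicate number as a block, a fit of only the 2 groups compared, each library left out, and control replicates 1 and 2 left out together. Promoter windows come from RefSeq (GRCh38.p14). Some genes of the marker and interferon lists are counted in those lists and not reported singly here.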

Additional observations from a re-analysis of the deposited data

How the results depend on the processing

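The count of cytosolic synthetase genes called in NFE2L1 against control was 4. Under median-of-ratios scaling it was also 4, with IARS and RARS in place of GARS and MARS. It was 1 with no filter on low values, 10 after the GC content and length correction, 2 with the replicate block, 2 in a fit of only the 2 groups, 0 without control replicates 1 and 2, and 1 to 15 with each library left out. The mitochondrial count was 1; it was 2 after the GC content and length correction, 0 without control replicates 1 and 2, and 0 to 5 with each library left out. In NFE2L1DC against control the cytosolic count was 0 and became 2 after that correction and 0 to 9 with each library left out. The mitochondrial count was 0 and became 1 with a pseudocount of 0.1, 1 after the correction and 0 to 3 with each library left out. For NFE2L1 against NFE2L1DC both counts were 0 in every setting. Without control replicates 1 and 2 the lone control library is assumed to vary like the other groups, so a lost call there says little. Fewer samples enter the fits that leave libraries out; otherwise the cause was not tested.

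The replicate numbers did not pair the samples: the correlation of same-numbered libraries was -0.189 to 0.109 and passed 0.1 in 1 of 9 pairs. With the replicate block the calls of GARS and FARSB in NFE2L1 had adjusted p = 0.0629 and 0.0764 in limma. The sign of WARS2 turned in NFE2L1 against control without control replicates 1 and 2 (-0.16), and in NFE2L1DC against control with median-of-ratios scaling (0.00), without control replicate 1 (0.00) and without control replicates 1 and 2 (-0.25), with 0.00 to 0.27 over the libraries left out 1 at a time. The sign of GARS between the lines turned with median-of-ratios scaling (-0.06), after the GC correction (-0.01), without NFE2L1 replicate 1 (-0.01) and without NFE2L1DC replicate 2 (-0.06), with -0.06 to 0.08 over the libraries left out 1 at a time. Of 1440 values for the 30 other genes over these settings, 1323 kept their direction and side of the threshold, 33 passed it and 84 changed sign. Depth is unknown, so no limit from counting can be given.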

Other observations

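EIF2S1, the alpha subunit of the factor that brings the initiator methionyl-tRNA to the ribosome, differed between the lines more than any synthetase gene. It averaged 78.0 ± 0.960 TPM in NFE2L1 and 36.7 ± 2.83 TPM in NFE2L1DC libraries, against 46.0 ± 6.09 TPM in control libraries (SD, n = 3 each). The log2 change was 1.07 ± 0.11 in NFE2L1 against NFE2L1DC (limma adjusted p = 0.00192) and 0.76 ± 0.11 in NFE2L1 against control (adjusted p = 0.00318). In NFE2L1DC against control the difference was -0.32 ± 0.11 (adjusted p = 0.134). Of 20 cytosolic translation factors it was the gene that passed between the lines; it was singled out after its values were seen.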
